A study of Mus musculus with 32 samples.

Results

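The genes described here encode small nuclear RNAs, Y RNAs, 7SK, the RNAs of RNase MRP and RNase P, box H/ACA small nucleolar RNAs (snoRNAs) and Cajal body RNAs. They were taken by symbol from a mouse table of RNA polymerase II (Pol II) chromatin immunoprecipitation: every symbol starting with Rnu, Rny, Rn7s, Snora followed by a digit, or Scarna, together with Rmrp and Rpph1. The rule found 62 of the 27179 genes in the table. By textbook knowledge of their promoters, 9 are transcribed by Pol II (Rnu1a1, Rnu1b1, Rnu1b2, Rnu1b6, Rnu2-10, Rnu5g, Rnu7, Rnu11 and Rnu12) and 6 by RNA polymerase III (Pol III: Rnu6, Rn7sk, Rny1, Rny3, Rmrp and Rpph1). Another 46 (38 Snora and 8 Scarna genes) lie inside the span of a host gene, and Scarna2 overlaps none. Whether a snoRNA sits in an intron or an exon of its host was not read from the gene positions, which give only start and end. The genes for U3, a Pol II transcript, carry Snord3 symbols in this table. They therefore fall outside the 62 and are given as a comparison.

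U1, U2, U5, U11 and U12 are RNA parts of the major and minor spliceosomes, and U7 guides the 3′ end processing of histone messenger RNAs. Their short genes have no introns, are driven by a proximal sequence element bound by the SNAPc complex, and are read by Pol II with the Integrator complex ending the transcript. U6, 7SK, RNase P RNA and RNase MRP RNA have related promoters with a TATA box added and are read by Pol III. Most H/ACA snoRNAs, which guide pseudouridine formation, are cut out of the introns of host transcripts, so the polymerase over them is that of the host.

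The study profiled 4 mouse organs (brain, heart, kidney, liver) in 2 preservations: flash frozen, or formalin-fixed (10%) and paraffin-embedded (FFPE). Frozen tissue was crosslinked for 30 min in 1% formaldehyde, whereas FFPE tissue was freed of paraffin and then heated to extract chromatin; effects of preservation and of extraction cannot be told apart. Chromatin was precipitated with an antibody to the C-terminal domain of Pol II; input libraries were not used here. The labels give 2 libraries per group, which also differ in date and library kit, but the table has 1 column per organ and preservation. If a column stands for a single library or for the sum of both was not given in the sources used here, nor were age, sex and strain. A column is termed a profile below, and as profiles are not known to be separate animals, p-values measure only the spread between these profiles.

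The 8 profiles held between 864816 (FFPE liver) and 2178329 (frozen liver) reads in genes, of which the 62 genes took 257 and 2005. In the other organs the 62 genes had 300 to 629 reads in FFPE and 746 to 999 in frozen profiles. Values are log2 of depth-scaled reads with 0.5 reads added. The 5 marker genes listed for each organ were highest in that organ in both preservations. Their mean level was 10.24 in frozen and 7.60 in FFPE liver, 9.41 and 8.25 in heart, 7.98 and 6.97 in kidney, and 6.62 and 6.64 in brain. The FFPE effect on small RNA genes is read beside these values, and the part of this narrower range in it was not tested.

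No promoter window of these 62 genes was in the sequence table used, but the windows of 4 neighbouring genes cover the DNA of Rnu7 and DNA upstream of Rpph1, Rmrp and Rn7sk. The first 3 are printed. They are shown because the comparison of the polymerases turns on genes of this kind. All are RefSeq sequence of mm10 (GRCm38.p6), minus strand, 5′ to 3′. The whole of Rnu7 (chr6:124741225-124741286) carries in capitals a match to AATTT followed by any base and T, the form of site bound by Sm-type proteins, found on the printed strand.
Rnu7: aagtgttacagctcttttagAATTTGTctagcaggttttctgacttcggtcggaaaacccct
The DNA between Rpph1 and a start site of Parp2 (chr14:50807772-50807915), read toward Rpph1, carries in capitals matches to the octamer ATTTGCAT, to CACCNTAA (a core form of the proximal sequence element) and to TATAA, each searched on both strands.
Rpph1: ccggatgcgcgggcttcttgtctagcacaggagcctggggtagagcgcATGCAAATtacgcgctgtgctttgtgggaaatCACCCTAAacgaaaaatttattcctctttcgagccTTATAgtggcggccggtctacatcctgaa
The DNA between Rmrp and a start site of Ccdc107 (chr4:43493115-43493364), read toward Rmrp and ending 55 bases before it, was searched in the same way.
Rmrp: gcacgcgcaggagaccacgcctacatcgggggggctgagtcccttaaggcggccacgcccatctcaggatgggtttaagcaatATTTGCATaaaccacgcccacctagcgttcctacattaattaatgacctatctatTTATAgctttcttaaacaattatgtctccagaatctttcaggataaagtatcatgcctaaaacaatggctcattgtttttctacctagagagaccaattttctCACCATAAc

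The CACCNTAA match ended 56 bases before the gene at both Rpph1 and Rmrp. The octamer ended 88 bases before Rpph1 and 214 bases before Rmrp, and TATAA matches lay 24 bases before Rpph1 and 162 bases before Rmrp. Both TATAA matches and the octamer at Rpph1 were on the strand opposite to the printed one. The window next to Rn7sk, which ends 30 bases before it, held no octamer and no CACCNTAA match on either strand. Its nearest TATAA match lay 92 bases before the gene. The 55 bases before Rmrp and the 30 before Rn7sk were not searched, so nearer matches there would be missed. Among 32851 RefSeq promoter windows of 300 bases, 1.74% held the octamer, 1.89% CACCNTAA and 24.9% TATAA. The Sm-type letters occurred in 3.31% of stretches of 62 bases at the centre of those windows. The motifs were chosen after these sequences were seen, and a match is a description of letters only. The start sites used for neighbouring genes lie 145 bases from Rpph1 (Parp2), 156 from Rnu7 (Grcc10), 281 from Rn7sk (C920006O11Rik) and 306 from Rmrp (Ccdc107). The spans of Parp2 and Ccdc107 begin nearer than these sites. Fragments of the immunoprecipitated DNA can therefore reach both genes of a pair.

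In frozen tissue 6 of the 9 Pol II snRNA genes carried the highest levels per length of the 62 genes. On the scale of log2 depth-scaled reads per kilobase, mean and SD over 4 frozen profiles, Rnu1a1 (U1) stood at 9.60 ± 0.80, Rnu11 (U11) at 9.08 ± 0.69 and Rnu2-10 (U2) at 9.01 ± 0.87. They were followed by Rnu7 at 8.61 ± 0.61, Rnu12 (U12) at 8.27 ± 0.64 and Rnu5g (U5) at 7.07 ± 0.98. The 3 U1b genes ranked 33 (Rnu1b1, 4.32 ± 0.45), 39 (Rnu1b6, 4.06 ± 0.67) and 43 (Rnu1b2, 3.88 ± 0.97) of 62. Neighbours among the 6 highest differ by less than their SD, except Rnu12 and Rnu5g. The highest gene inside a host, Snora78, stood at 6.67 ± 0.35, and the highest Pol III gene, Rn7sk, at 6.20 ± 0.39. The median level per kilobase was 8.27 for the 9 Pol II genes, 5.56 for the 6 Pol III genes and 4.20 for the 46 genes inside hosts. In FFPE tissue the same medians were 6.97, 5.65 and 4.33, so the Pol II genes stood nearer to the others. Fragments can be longer than these genes, so the division by length raises the shortest ones, such as Rnu7 with 62 bases.

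**Figure D1:**
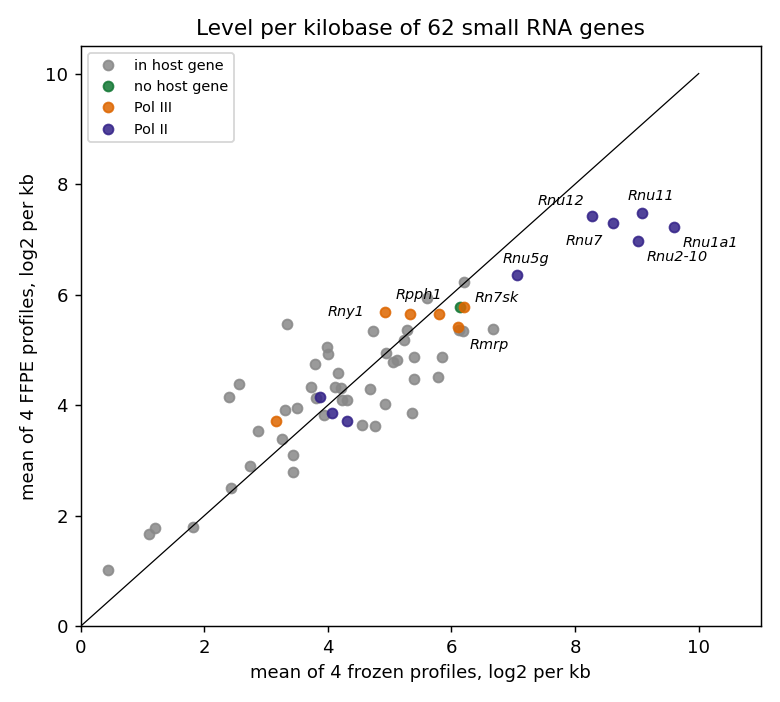
Level of each of the 62 small RNA genes, as log2 depth-scaled reads per kilobase, averaged over the 4 frozen profiles (horizontal axis) and the 4 FFPE profiles (vertical axis), coloured by class; the line marks equal levels. The 6 Pol II genes at the right (Rnu1a1 to Rnu5g) lie below the line, while the Pol III genes and those inside hosts scatter around it.

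FFPE was compared with frozen tissue over the 4 organs, with organ as a term in limma and p-values adjusted over 26758 genes. The spliceosomal RNA genes Rnu1a1 (U1), Rnu2-10 (U2) and Rnu11 (U11) had lower Pol II levels, as depth-scaled reads, in FFPE tissue. No other of the 58 genes tested passed the adjusted threshold of 0.05 in either direction, so 3 were lower and 0 higher by limma (6 lower and 1 higher at an unadjusted p under 0.05, or 10.3% and 1.72%, against 5.53% and 3.79% of all genes). Over all genes tested, 0.422% were called lower and 0.153% higher. The 4 genes not tested were Snora24, Snora26 and Snora73b, with 0 reads in every profile, and Snora35 with 2 reads in all. In whole tissue, fewer cells of a type and less polymerase per cell cannot be told apart.

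Rnu1a1, a U1 gene at chr11:87422867-87423030 inside the span of Tex14, had log2 levels of 7.04, 6.94, 6.01 and 7.97 in frozen brain, heart, kidney and liver. The FFPE levels were 5.18, 5.77, 3.63 and 3.86 in the same order. Every FFPE profile lay below every frozen profile, and the gap was widest in liver. The fitted difference was -2.38 ± 0.31 (log2, SE, 4 against 4 profiles, limma adjusted p = 0.00037). Tex14 itself, a germ cell gene around it, differed by 0.13 ± 0.25 (limma adjusted p = 0.92).

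Rnu2-10, a U2 gene at chr11:101658238-101658424, stood at 6.53, 6.22, 5.81 and 7.82 in frozen brain, heart, kidney and liver. In FFPE tissue it stood at 4.77, 5.06, 4.23 and 4.15. Again no FFPE profile reached a frozen one, and the difference was -2.04 ± 0.30 (limma adjusted p = 0.0012). Rnu11, which encodes the minor spliceosome's counterpart of U1 (chr4:132270079-132270186), had 5.78, 5.91, 5.05 and 6.75 in frozen and 4.39, 4.54, 3.86 and 4.31 in FFPE tissue. The FFPE values of Rnu11 were close to one another (SD 0.29), all below the frozen ones (SD 0.69), and differed from them by -1.60 ± 0.27 (limma adjusted p = 0.0033). Without either heart profile Rnu11 was no longer called (adjusted p up to 0.068), whereas Rnu1a1 and Rnu2-10 were called without any single profile. Over all genes tested, 1.33% had every FFPE profile below every frozen one, and 1.95% the reverse, as did 1 of the 58, Snora30 in Srcap (2.13 ± 0.73, adjusted p = 0.271).

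The other 6 Pol II genes did not pass the test. Rnu7, which encodes the histone processing RNA, was at 4.05, 5.19, 4.08 and 5.06 in frozen brain, heart, kidney and liver and at 3.41, 3.23, 2.41 and 4.06 in FFPE tissue. It was lower in each organ, but FFPE liver reached the level of frozen brain and kidney, and the difference of -1.32 ± 0.37 had a limma adjusted p of 0.139. Rnu12, the minor spliceosome's counterpart of U2, was at 5.26, 5.89, 4.78 and 6.22 in frozen and 4.67, 5.00, 4.84 and 4.23 in FFPE tissue. Its FFPE value was below the frozen one in 3 organs and slightly above it in kidney (difference -0.85 ± 0.29, adjusted p = 0.269).
Rnu5g, a U5 gene, was at 3.43, 3.85, 3.19 and 5.37 in frozen and 2.50, 4.08, 3.36 and 3.01 in FFPE tissue (difference -0.72 ± 0.46, adjusted p = 0.676). Only brain and liver were lower in FFPE there. The 3 U1b genes in a cluster on chromosome 3 had 1 to 9 reads in any profile and differed by -0.61 ± 0.71 (Rnu1b1), -0.20 ± 0.73 (Rnu1b6) and 0.27 ± 0.70 (Rnu1b2). U1 and U2 genes have near-identical copies, and how reads matching several copies were counted is not given, so the split between Rnu1a1 and the U1b genes is uncertain.

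**Figure D2:**
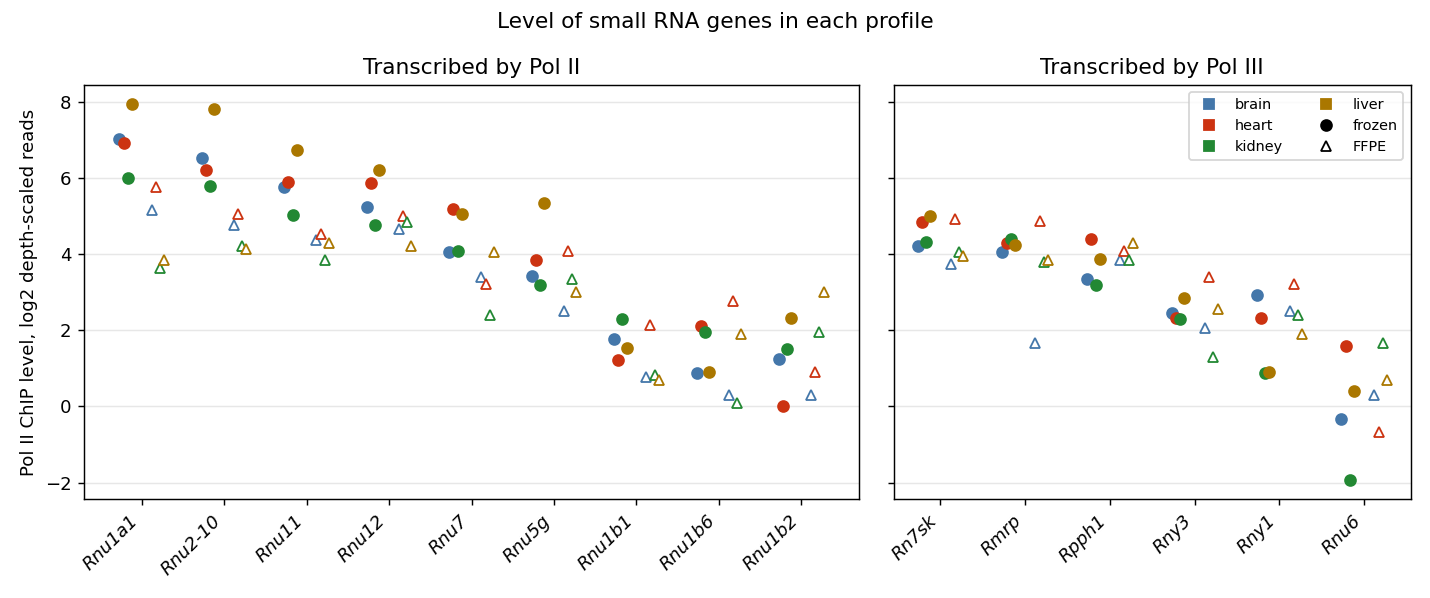
Pol II ChIP level of each Pol II gene (left) and Pol III gene (right) as log2 depth-scaled reads with 0.5 reads added; each point is 1 profile, coloured by organ, filled circles frozen and open triangles FFPE. For Rnu1a1, Rnu2-10 and Rnu11 the triangles lie below all circles, while for Rn7sk, Rpph1, Rny1 and Rny3 the symbols overlap. The levels are not divided by length, so heights are compared within a gene only.

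The U3 genes were lower in FFPE tissue too. U3 is the snoRNA that binds the ribosomal RNA precursor, and 4 of its genes lie in the same Tex14 span on chromosome 11 as Rnu1a1. Of 5 U3 genes 4 were called lower: Snord3b4 by -1.69 ± 0.28 (limma adjusted p = 0.0034), Snord3b2 by -1.68 ± 0.32 (0.012), Snord3b3 by -1.71 ± 0.36 (0.027) and Snord3b1 by -1.38 ± 0.32 (0.044). Snord3a differed by -1.20 ± 0.54 (adjusted p = 0.476). Snord3b4 had 5.30, 5.89, 5.73 and 7.85 in frozen brain, heart, kidney and liver and 4.28, 4.19, 4.65 and 4.88 in FFPE tissue, with no overlap. The calls of Snord3b1 and Snord3b3 were each kept in 2 of 8 fits that left out 1 profile, that of Snord3b2 in 5 and that of Snord3b4 in 6. These genes are near-identical copies, so they are not 5 separate measurements.

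None of the 6 Pol III genes was called, and 0 had an unadjusted p under 0.05 in limma. Rn7sk, which encodes the 7SK RNA that holds the elongation factor P-TEFb inactive, was at 4.23, 4.87, 4.33 and 5.01 in frozen brain, heart, kidney and liver and at 3.76, 4.94, 4.06 and 3.96 in FFPE tissue. The 8 values overlapped (difference -0.43 ± 0.32, limma adjusted p = 0.728). Rpph1, the RNase P RNA gene, was at 3.36, 4.40, 3.19 and 3.87 in frozen and 3.86, 4.08, 3.86 and 4.31 in FFPE tissue, higher in FFPE in 3 organs (0.32 ± 0.37, adjusted p = 0.851).
Rmrp, the RNase MRP RNA gene, was at 4.05, 4.31, 4.40 and 4.24 in frozen tissue, an SD of 0.15. In FFPE it was at 1.68, 4.88, 3.79 and 3.86, so brain alone stood apart with 6 reads (-0.70 ± 0.42, adjusted p = 0.662). Among the genes of Y RNAs, which bind the Ro protein, Rny1 differed by 0.76 ± 0.61 (adjusted p = 0.761) and Rny3 by -0.15 ± 0.58 (adjusted p = 0.959). They had 3 to 14 reads per profile. Rnu6, a gene of the U6 RNA with many copies in the genome, had 0 to 4 reads per profile and differed by 0.57 ± 0.94. Of the neighbours whose fragments can reach small RNA genes, Parp2 beside Rpph1 differed by 0.19 ± 0.28, Ccdc107 beside Rmrp by -0.47 ± 0.33, C920006O11Rik beside Rn7sk by -0.12 ± 0.26 and Grcc10 beside the Pol II gene Rnu7 by -0.45 ± 0.31. Their part in the values was not tested.

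The 42 tested genes inside hosts were as often above as below 0. Of these 22 were higher and 20 lower in FFPE, with a median of 0.01 and a range from -1.50 to 2.13. None was called by limma, and 1 in each direction had an unadjusted p under 0.05. Reads were few: 25 of the 46 had under 10 reads in every profile and 9 had 20 or more in some profile. A gene of 0 reads stood at -2.02, -0.67, -1.50 and -0.90 in FFPE brain, heart, kidney and liver. In frozen tissue it stood at -1.92, -1.58, -1.94 and -1.91, so depth alone can set the sign where reads are few. Under 8 other settings the median of this class ran from -0.41 to 0.23. The gene with most reads was Snora78, inside the ribosomal protein gene Rps2 and the noncoding Snhg9. It had 26, 31, 23 and 33 reads in frozen brain, heart, kidney and liver and 18, 1, 9 and 14 in FFPE tissue. It was lower in each organ, most in heart (-1.29 ± 0.51, adjusted p = 0.384).
Snora81, in the translation initiation factor gene Eif4a2, had 94 reads in all and a difference of 0.09 ± 0.58. Snora3, in Rpl27a, had 83 reads and -0.98 ± 0.67, and Snora73a, in Snhg3, 81 reads and -0.30 ± 0.55. Among the 4 highest Snora and Scarna genes per length, by the mean over all 8 profiles, Snora61 in Snhg12 differed by 0.02 ± 0.73 and Snora64 in Rps2 by 0.33 ± 0.54. Scarna2, the Cajal body RNA gene without a host, had 0 to 22 reads per profile and a difference of -0.36 ± 0.77. Of these 7 genes, Snora78 and no other had the same sign in all 4 organs.

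Side by side, the 9 Pol II genes had a median FFPE minus frozen difference of -0.85 (range -2.38 to 0.27), with 8 of 9 below 0. The 6 Pol III genes had a median of 0.09 (-0.70 to 0.76), with 3 on each side. Over all genes tested the median was -0.01, and over those with a mean log2 level of at least 4 it was -0.04. FFPE was below frozen in each of the 4 organs for 4 of the 9 Pol II genes, 0 of the 6 Pol III genes and 2 of the 42 inside hosts, against 8.45% of all genes. It was above frozen in each organ for 0, 0 and 3 genes of these classes, against 8.12% of all genes. Without U1 and U2 copies the Pol II median was -1.08 over 4 genes, and without U6 the Pol III median was -0.15 over 5.

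Other short genes are given for comparison. Of all 26758 genes tested, limma called 0.422% lower and 0.153% higher, and 13668 were below 0. At an unadjusted p under 0.05 the shares of all genes were 5.53% lower and 3.79% higher. The 526 microRNA genes had a median of 0.11 with 0 called by limma (7 lower and 12 higher at an unadjusted p under 0.05). The 70 box C/D snoRNA genes other than U3, U8 and U13 had a median of -0.39, with 1 called lower. The 1106 tested genes under 500 bases that are not among the 62 had a median of 0.06, with 14 lower and 0 higher. Replication-dependent histone genes, which are short, intronless and read by Pol II, had a median of -0.79, with 57 of 62 below 0 and 12 called lower. The sizes of these differences were not tested between groups of genes.

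**Figure D3:**
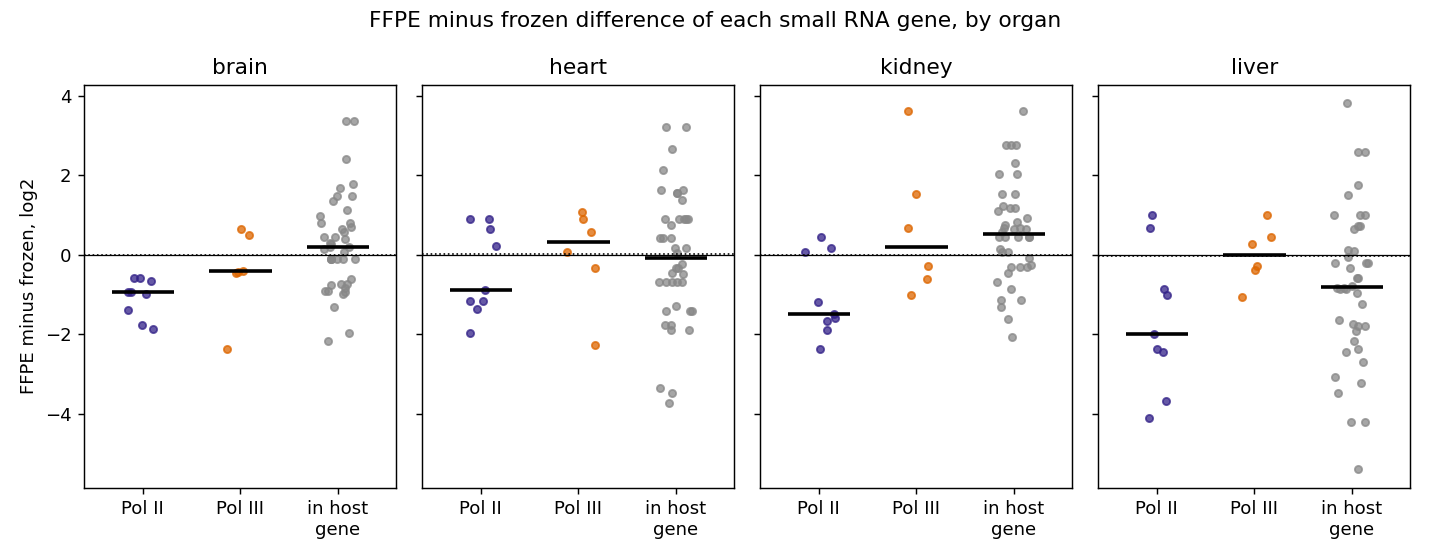
FFPE minus frozen difference (log2) in each organ for the tested Pol II genes (9), Pol III genes (6) and genes inside a host (42); each point is 1 gene, thick lines are class medians and the dotted line, almost on 0, is the median of all tested genes. The Pol II medians run from -0.89 in heart to -1.98 in liver, and the Pol III medians lie between -0.42 and 0.33.

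Summed reads showed the same contrast with less weight on genes of few reads. Each organ has 1 profile per preservation, so these ratios have no replicate check, and their exact binomial intervals (95%) cover counting error only. Per scaled total, the Pol II genes had 2.74 times as many reads in frozen as in FFPE brain (2.37 to 3.17), 2.10 times in heart (1.75 to 2.55), 2.31 times in kidney (1.90 to 2.84) and 7.10 times in liver (5.78 to 8.82). The Pol III genes had 1.42 (1.06 to 1.91), 0.862 (0.641 to 1.17), 1.04 (0.765 to 1.41) and 1.29 (0.934 to 1.80) times as many. The Pol III intervals include 1 in 3 organs and lie just above it in brain, where Rmrp had 31 reads in frozen and 6 in FFPE tissue. In liver the sum hides Rn7sk, with 60 reads in frozen and 14 in FFPE tissue, a ratio of 2.13 (1.17 to 4.12). The liver ratios of Rmrp (1.34), Rny3 (1.29) and Rpph1 (0.745) had intervals that include 1.
Genes inside hosts had frozen to FFPE ratios of 0.839, 1.30, 0.733 and 2.24 in the same order of organs. Without U1 and U2 the Pol II ratios were 1.94, 2.14, 1.49 and 4.17. With reads pooled over organs without scaling, the Pol II genes made up 65.2% of the reads of all 62 genes in frozen tissue. In FFPE profiles they made up 38.7%, while the Pol III share was 10.3% in frozen and 17.7% in FFPE. Liver gave 2005 of the pooled frozen reads and 257 of the FFPE reads. As parts of 1 total, the Pol III share can rise without more Pol III reads.

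**Figure D4:**
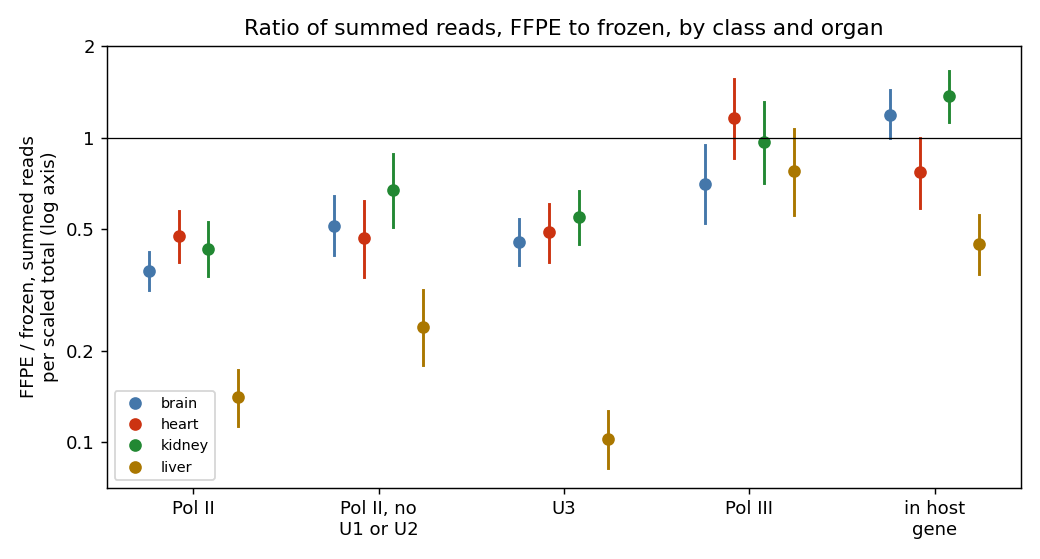
Ratio of summed reads per scaled total, FFPE over frozen (log axis), for each class of genes and organ; points are the ratios and bars exact 95% binomial intervals for counting error. All Pol II and U3 ratios lie below 1, lowest in liver (0.141 and 0.103), while Pol III ratios range from 0.706 to 1.16.

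Of the 9 Pol II genes, 5 had their lowest FFPE minus frozen difference in liver (Rnu1a1, Rnu2-10, Rnu11, Rnu12 and Rnu5g). Rnu7 had it in heart (-1.96), Rnu1b1 (-1.48) and Rnu1b6 (-1.88) in kidney and Rnu1b2 in brain (-0.94), and Rnu1b2 and Rnu1b6 were higher in FFPE liver (0.67 and 1.01). Rnu1a1 had 469 reads in the frozen liver profile and 13 in the FFPE one, a ratio per scaled total of 17.9 (10.4 to 33.9), against 3.66 in brain, 2.26 in heart and 5.32 in kidney. Rnu2-10 had 423 and 16 reads, a ratio of 13.1 (7.99 to 23.2), against 3.40, 2.28 and 3.03. In the test of liver's FFPE minus frozen difference against that of the other 3 organs, Rnu1a1 differed by -2.31 ± 0.47 (limma adjusted p = 0.014) and Rnu2-10 by -2.17 ± 0.47 (0.022). These were 2 of the 58 genes, against 0.531% of all genes, and the lone liver difference is assumed to vary like the others. With quantile normalization neither was called (adjusted p = 0.23 and 0.24).
Other values moved with this result. The liver markers were 10.24 in frozen and 7.60 in FFPE tissue, the FFPE liver profile was the shallowest, and 19 of the 46 genes inside hosts had their highest level in frozen liver. The part of these in the liver difference was not tested. The U3 genes Snord3b3 (-3.06 ± 0.49, adjusted p = 0.0011), Snord3b2 (-2.35 ± 0.52, 0.023) and Snord3b1 (-2.26 ± 0.50, 0.025) also passed. So did 4 of the 62 tested replication-dependent histone genes, whose median FFPE minus frozen difference in liver was -1.86, beside -1.98 for the Pol II genes. Box C/D snoRNA genes other than U3, U8 and U13 had a frozen to FFPE ratio in liver of 3.32 (2.80 to 3.96), and microRNA genes 1.26 (1.17 to 1.36). Rnu5g (-2.18 ± 0.93), Rnu12 (-1.51 ± 0.55) and Rnu11 (-1.12 ± 0.54) did not pass (adjusted p = 0.353, 0.244 and 0.428), nor did Rnu7 (0.42 ± 0.83), Rnu1b1 (-0.34 ± 1.69), Rnu1b2 (0.54 ± 1.67) or Rnu1b6 (1.61 ± 1.70). No gene of the 26758 passed for brain, heart or kidney (0.0%).

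The organs were compared as each against the mean of the other 3, with both preservations. Of the 58 genes 1 was called: Snora33, in the ribosomal protein gene Rps12, was lower in heart by -3.00 ± 0.85 (2 against 6 profiles, limma adjusted p = 0.039), where 2.18% of all genes were called lower. It had 0 reads in both heart profiles, where the limit set by 3 reads is 2.14 (FFPE) and 1.23 (frozen) in log2, and 3 to 10 reads in the other profiles. The fitted difference depends on the reads added. The call was lost with 2 reads added (-1.34, adjusted p = 0.18) and was kept in 1 of 8 fits without a single profile, the one without FFPE liver. No member was called higher in heart (3.06% of all genes), nor in brain (3.43% higher, 4.02% lower), kidney (0.919%, 0.456%) or liver (4.52%, 3.39%). At an unadjusted p under 0.05, limma gave 0 higher and 1 lower in brain, 0 and 2 in heart, 0 and 5 in kidney and 0 and 1 in liver. The lower counts in brain, heart and liver were 1.72%, 3.45% and 1.72% of the 58. Among all genes the same shares were 10.3%, 9.04% and 9.93%, all larger. Of all genes 7.98%, 9.01%, 5.09% and 9.38% were higher in brain, heart, kidney and liver.
The 5 in kidney were 8.62% of the 58, against 5.55% of all genes at that threshold. Of these 4 were Pol II genes, and Rnu1a1 differed by -1.30 (adjusted p = 0.076), its frozen and FFPE values both being the lowest of their preservation. In liver the 2 preservations went apart: Rnu1a1 was highest of the frozen profiles and among the lower 2 of the FFPE profiles, and its organ difference was 0.15 (adjusted p = 0.886). Leaving out a liver profile leaves 1 liver profile, so effect sizes only are given, for genes picked by their values in these fits. Without the FFPE liver profile Rnu1a1 differed by 1.30, Rnu2-10 by 1.63, Rnu11 by 1.17 and Snora20 by 4.24 in liver. In the same fit Rnu1a1 differed by -1.69, Rnu2-10 by -1.10 and Rnu11 by -1.01 in kidney. Without the frozen liver profile Rnu1a1 differed by 1.12 in heart and -0.92 in kidney, and Snora7a by -3.63 in liver.

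No gene listed for the proteins that make and use these RNAs was called between preservations. In FFPE against frozen, 0 of 14 genes of snRNA gene activation (median -0.06), 0 of 14 Integrator genes (-0.04), 0 of 22 genes of the Pol III machinery (0.03) and 0 of 9 genes of 7SK, La and Ro proteins (-0.03) were called by limma. The same held for 34 genes of Sm and U snRNP proteins (-0.11) and 22 of snoRNP and RNase P/MRP proteins (-0.07). At an unadjusted p under 0.05 these lists had, in the same order, 0, 0, 0, 0, 3 and 0 lower and 1, 1, 1, 0, 0 and 0 higher genes. Among all genes 5.53% were lower and 3.79% higher at that threshold.
Between organs, limma called 2 of these 115 genes lower in brain, 1 higher in heart and 1 higher in kidney. In liver it called 3 higher and 5 lower, and there were 0 in the other directions. Of all genes, 3.43% were called higher and 4.02% lower in brain, and 3.06% and 2.18% in heart. The shares were 0.919% and 0.456% in kidney and 4.52% and 3.39% in liver. Polr3e, a Pol III subunit, was higher in kidney by 1.97 ± 0.22 (limma adjusted p = 2.5e-05) and lower in liver by -0.87 ± 0.22 (0.016). Ell2, an elongation factor of the complex that acts on snRNA genes, was lower in brain by -1.38 ± 0.25 (0.00082) and higher in liver by 1.30 ± 0.25 (0.0012). Snrnp35, a protein of the U11/U12 particle, was higher in heart by 1.96 ± 0.42 (0.0067) and lower in liver by -1.37 ± 0.42 (0.049), and the Sm-like Lsm4 lower in brain by -1.09 ± 0.32 (0.038). The others called in liver were Ell (0.81 ± 0.24) and Crcp (1.08 ± 0.30), both higher, and Ints1 (-0.80 ± 0.23), Gtf3c5 (-0.83 ± 0.25) and Ro60 (-0.80 ± 0.23), all lower.

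Host genes were compared with the snoRNA genes inside them. The 46 genes lie in 40 distinct hosts, taking Rps2 as the host of Snora78: 34 are in protein-coding genes, 12 of these in genes of ribosomal proteins, and 12 in long noncoding RNA genes, most of them Snhg genes. Of 39 hosts in the table, 31 were lower in FFPE, with a median of -0.32. None was called by limma (smallest adjusted p = 0.052), and 8 were lower and 0 higher at an unadjusted p under 0.05. Of all 26758 genes tested 13668 were below 0, and 5.53% were lower and 3.79% higher at that threshold. In 41 pairs of a tested snoRNA gene and its host, the host was below 0 in 33, the snoRNA gene in 19 and both in 18. No comparison with other pairs of genes was made. The reads of a snoRNA gene and of its host cannot be separated, as immunoprecipitated DNA is double-stranded and its reads do not mark which transcript the polymerase was making. Of the same 46 genes, 6 also overlap a microRNA gene, among them Snora34 with Mir1291 and Scarna13 with Mir3069.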

How the data were processed

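The members and the gene lists were chosen with earlier results of these data known. The authors deposited log2 values, scaled to depth, with 0.5 reads added to each count. The submitters' processing notes name Bowtie2, mm10, featureCounts and limma; their versions, the strand counted and the handling of reads with several matches were not given in the sources used here. By its title, the table is taken to hold Pol II profiles. Whole reads were recovered from its 8 columns for 100% of values (tolerance 1e-06), with scaling factors from 0.862 to 1.12. A gene was tested if at least 2 profiles reached a log2 value of 0, which left 26758. Tests used limma 3.58.1 (R 4.3.3) on organ and preservation, by trended empirical Bayes moderation with 3 residual and 19.4 prior degrees of freedom; the threshold was a Benjamini-Hochberg adjusted p of 0.05. For organ differences in the FFPE effect, limma was run on the 4 FFPE minus frozen values. Classes of genes were described without a test. The fit was tried on simulated data for FFPE against frozen (26758 genes, 200 changed). It recovered 64% of genes changed by 1 and 100% changed by 2 on the log2 scale, and 5 unchanged genes were called. The 200 were drawn from genes with a mean of at least 20 reads per profile, with a spread set in advance. The 62 genes had a median of 35.5 reads over the 8 profiles together, so these rates do not cover most of them. Gene positions are those of GRCm38.p6, matched by Entrez number for 25275 genes and all 62 members. Every Rnu, Rny, Rn7s, Rmrp and Rpph1 gene was named. Of the others, those past the threshold, the 4 highest per length and the 4 with most reads were named.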

Additional observations from a re-analysis of the deposited data

Results flagged for a closer look

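For Rnu1a1 and Rnu2-10 the FFPE minus frozen difference in liver was called unlike that of the other organs. Neither call was kept with quantile normalization. For Rnu1a1 the FFPE minus frozen difference in liver was lower than the mean of the other organs by -2.31 on the log2 scale, with 13 reads in FFPE and 469 in frozen liver. For Rnu2-10 it was lower by -2.17, with 16 and 423 reads. Both rest on 1 pair of liver profiles.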

How the results depend on the processing

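No paired analysis was possible because the columns carry no replicate number to pair by; FFPE was set against frozen within organ. Rnu1a1, Rnu2-10 and Rnu11 were called lower in FFPE under each of 8 other settings (3 genes). Over all genes, 41 were called higher and 113 lower; the higher count was 87 with 2 reads added, 23 with added reads in proportion to depth, 24 with a mean log2 of at least 2 and 70 with voom weights, which gave 247 lower. The Pol II median was -1.46 over the 6 genes with a mean log2 of at least 2. Scaling to silent receptors gave 1 gene lower in brain (Rmrp, -1.60, adjusted p = 0.033). The heart count of 1 became 0 with that scaling, 2 reads added, a mean log2 of at least 2, or voom weights. In kidney 1 gene was lower (Rnu1a1) with 2 reads added or voom weights. In liver 5 were higher with voom weights (Snora20, Rnu1a1, Rnu2-10, Rnu11 and Rnu5g). Over all 26758 genes, 1871 were called higher in liver with voom weights, against 1210 in the main fit. The rise was therefore not limited to these 5, and whether they exceed the general rate was not tested. The liver count of differing FFPE effects was 0 with quantile normalization. The median of all genes moved from -0.01 to 0.11 without mitochondrial genes and to -0.09 with silent receptors. The call of Snord3b1 was kept in 4 and that of Snord3b3 in 6 of these 8 settings.

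Leaving out 1 profile at a time gave 2 to 3 members lower in FFPE, 9 to 34 genes higher and 13 to 80 lower over all genes. Leaving out either profile of an organ removes that organ from this comparison. Medians ran from -1.16 to -0.60 (Pol II), -0.16 to 0.10 (Pol III), -0.23 to 0.21 (inside hosts), -1.24 to -0.89 (Pol II without U1 and U2), -0.56 to 0.13 (Pol III without U6) and -1.83 to -0.94 (U3). Leaving out 1 profile leaves its organ with 1, so counts of members called between organs are not given for these fits. Few reads limit most genes inside hosts, Rnu6, the Y RNA genes and the U1b genes.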

Other observations

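Other small RNA genes with promoters of their own were looked up after their values were seen. Snord118 (U8) and Snord13 (U13) are snoRNA genes read by Pol II outside any host. Snord118 had 61, 38, 31 and 75 reads in frozen brain, heart, kidney and liver and 15, 9, 13 and 16 in FFPE tissue, lower in each organ with no overlap on the log2 scale except that FFPE liver (4.15) lay above frozen kidney (4.04). Its difference was -1.29 ± 0.35 (log2, SE, limma adjusted p = 0.113). Snord13 differed by -1.25 ± 0.38 (adjusted p = 0.187) and Terc, the telomerase RNA gene, by -0.997 ± 0.43 (adjusted p = 0.458). Terc was called higher in liver by 1.69 (adjusted p = 0.037). Vaultrc5, a vault RNA gene read by Pol III, had 32, 33, 23 and 63 reads in frozen and 30, 13, 23 and 7 in FFPE tissue. It was lower in FFPE in 3 of 4 organs, by -2.07 in liver, and differed by -0.56 ± 0.39 overall (adjusted p = 0.711).

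Snora20, inside Tcp1, had 42 reads in frozen liver and 0 to 3 in each other profile. In log2 it stood at 4.50 in frozen liver and at most 0.79 elsewhere, and its difference between preservations was -1.50 ± 0.94 (adjusted p = 0.674). Snora30, inside Srcap, had the largest difference above 0 of the 58 genes tested. It had 5, 3, 12 and 4 reads in FFPE brain, heart, kidney and liver and 1, 2, 2 and 1 in frozen tissue, a difference of 2.13 ± 0.73 (adjusted p = 0.271). Both genes were singled out after their values were seen.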
